A study of Homo sapiens with 6 samples.

Results

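Genes of the SNARE machinery, the proteins that fuse transport vesicles with their target membranes, were followed in FUJIOKA cells after knockdown of SPINK2. The set holds 40 genes, taken by symbol from a list of SNAREs, their disassembly enzymes and their Sec1/Munc18 partners, among 17395 genes with an adjusted p-value. The list was drawn up around STX8, whose fall in this same comparison was already known, so the fold changes and counts given here describe the genes and test nothing about them. FUJIOKA is a human acute myeloid leukaemia cell line. Both groups carried a shRNA from a lentiviral vector that doxycycline switches on, a non-targeting control in shNEG and a hairpin against SPINK2 in shSPINK2, with 3 libraries each. The sample labels name 2 SPINK2 hairpins and do not say which of them a library carries.

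A SNARE on the vesicle and SNAREs on the target membrane wind into a parallel bundle of helices that pulls both membranes together. Each bundle takes 1 helix of each of the classes Qa, Qb, Qc and R, and the classes present on a membrane differ between compartments. Sec1/Munc18 proteins guide the assembly, and the ATPase NSF with its SNAP adaptors takes spent bundles apart so that their members can be used again. In myeloid cells the same machinery carries proteins to granules, late endosomes and lysosomes.

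SPINK2, which encodes a serine protease inhibitor, had 56, 63 and 53 reads in shNEG against 7, 9 and 6 in shSPINK2, a level 87.3% lower. Mean normalized counts (reads divided by a library's size factor, averaged over all 6 libraries) of the blood cell genes PTPRC, CD33, SPI1, MPO and LYZ were between 1844 and 44097, whereas CD34 stood at 19.6 and KIT at 0.67. Of the genes of other cells, EPCAM and ALB were at 0, CD3E was at 0.50 and COL1A1 at 149. Several of these genes differed between the groups, with log2 fold changes (shSPINK2 over shNEG) of 0.49 for LYZ, 0.36 for CD33, -0.40 for MPO and -0.61 for COL1A1, and their part in the differences of the SNARE genes was not tested.

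All 40 members were expressed, with mean normalized counts from 208 to 9115. In shSPINK2, 8 of them were lower, 21 were higher and 11 were not called, with a call set at 0.05 for the adjusted p-value of the authors' DESeq2 comparison. Over all genes with an adjusted p-value, 24.4% were called lower and 22.7% higher, and over the 10418 genes with a mean at least that of the lowest member the shares were 35.4% and 31.7%. The median log2 fold change of the members (in the same direction throughout) was 0.13, and it was 0.01 over all genes tested and -0.01 over those of at least the lowest member's mean.

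The differences downward were larger than those upward. Only STX8 and STX3 lay beyond a log2 fold change of 1 in either direction, where 2.71% of all genes tested were called lower and 1.56% higher, and VPS33B and STX2 came next, the last of the members that were over 1.5-fold lower (7.52% of all genes tested). No member was over 1.5-fold higher (5.73% of all genes tested), and VAMP8 stood at the top, 40.2% higher. Standard errors of the log2 fold changes ran from 0.04 to 0.13, so that a gene such as VTI1B was called at 0.12 while SNAP47 was not called at 0.14.

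**Figure D1:**
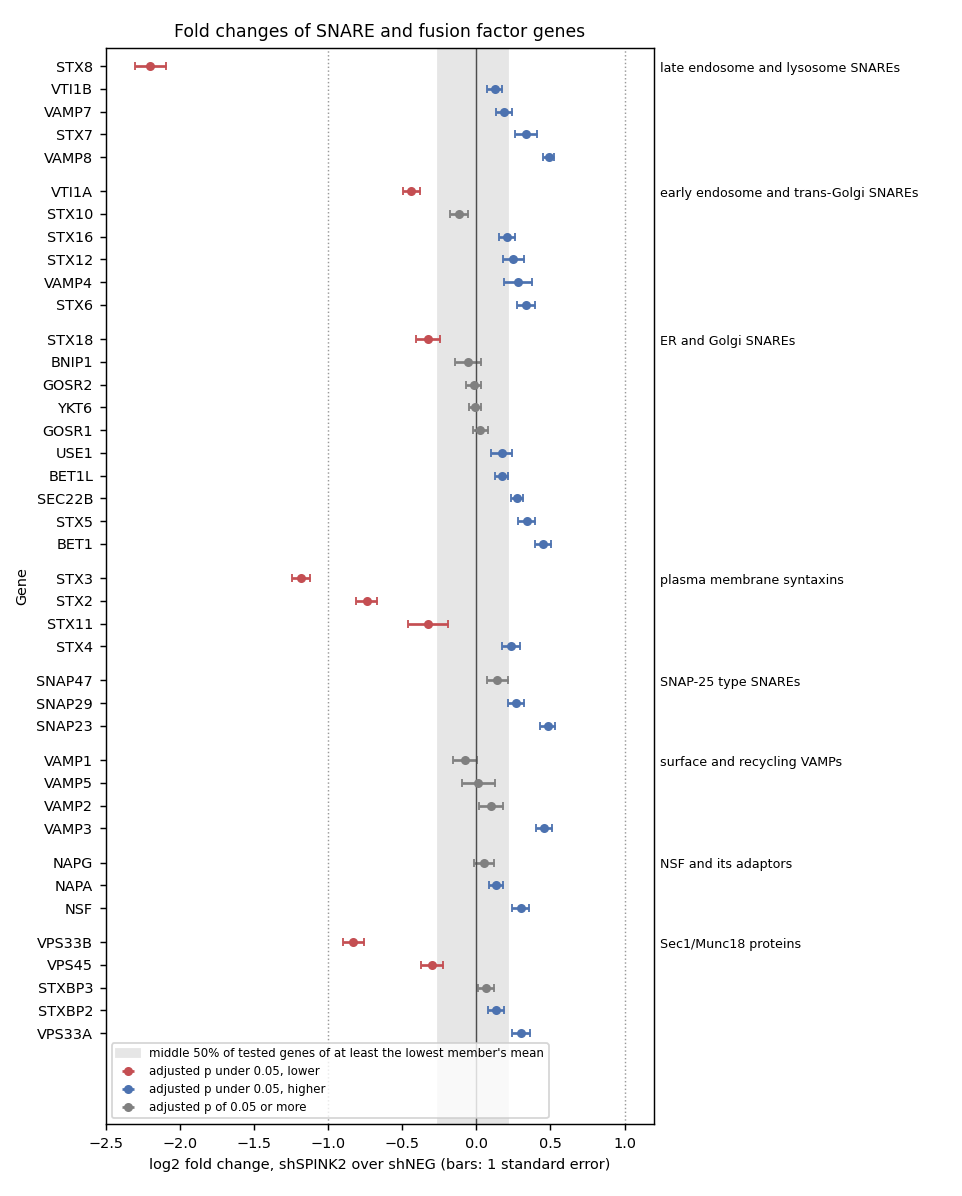
Log2 fold change of each of the 40 genes, shSPINK2 over shNEG, with a bar of 1 standard error, grouped by role and coloured by whether the adjusted p-value was under 0.05. STX8 at -2.20 and STX3 at -1.18 are the genes to the left of the dotted line at -1, and every gene to the right of 0 stays below 0.49, while the grey band gives the middle 50% of tested genes of at least the lowest member's mean.

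Whole reads per library could be recovered for all 40 genes from the deposited mean, fold change and standard error. Below, the reads of a gene are given in the same order of libraries, 3 shNEG and then 3 shSPINK2, and these libraries carry no replicate number. Their size factors differ by at most 4.85%. The groups of normalized reads did not overlap for 31 members, of which 8 were lower and 23 higher in shSPINK2. Of 500 other genes drawn from those with means between the lowest and the highest member's, 482 had recoverable reads, and among these the same held for 36.3% (lower) and 34.2% (higher).

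**Figure D2:**
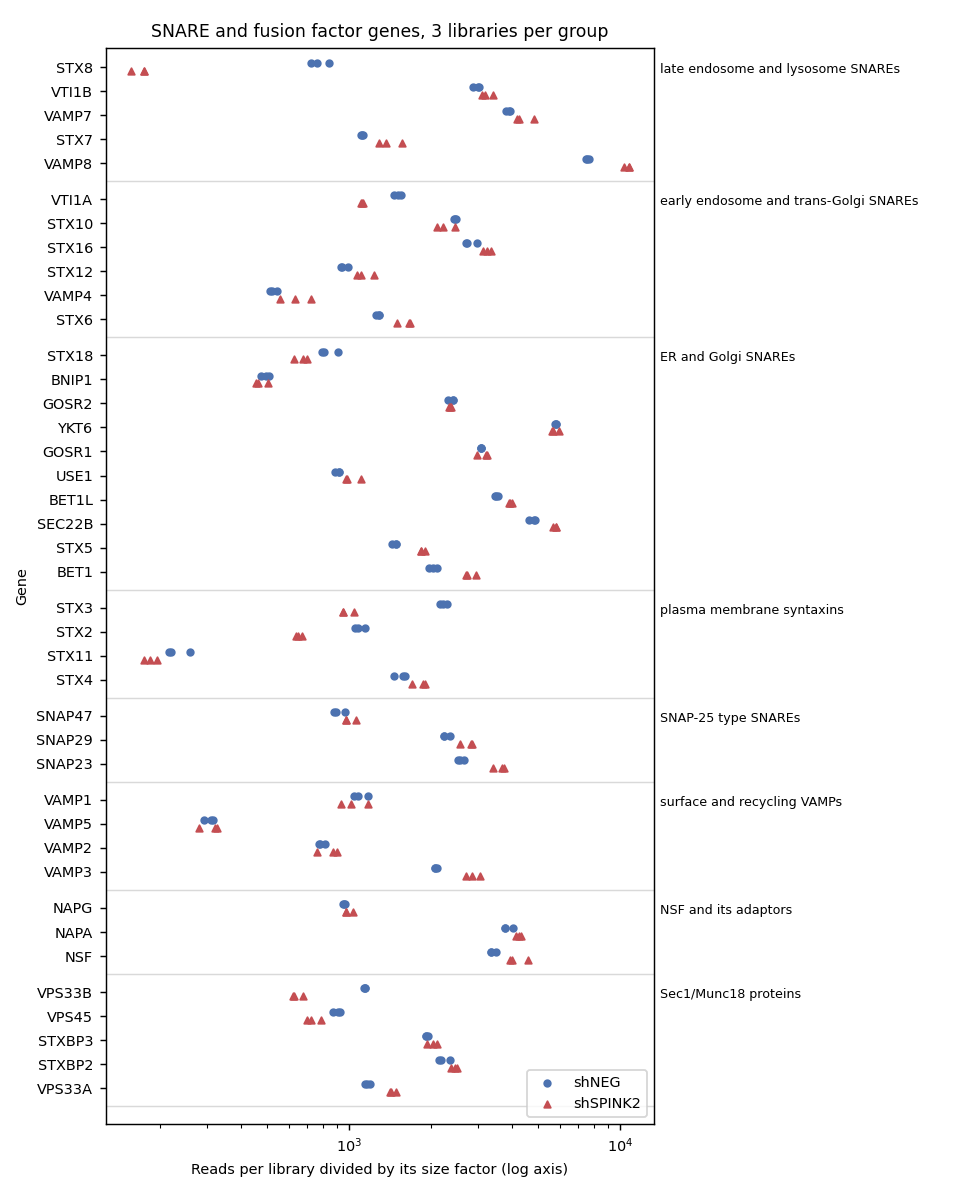
Reads of the 40 genes in each library divided by the library's size factor, on a log axis, with circles for the 3 shNEG and triangles for the 3 shSPINK2 libraries and genes grouped by role. The triangles of STX8, STX3, VPS33B and STX2 stand well to the left of their circles, and those of VAMP8, SNAP23, VAMP3 and BET1 to the right, whereas 9 genes have groups that overlap.

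The late endosomal SNAREs came first, since STX8 belongs to them. STX8, a Qc-SNARE, pairs with the Qa-SNARE STX7 and the Qb-SNARE VTI1B, and the bundle is completed by VAMP8 when late endosomes fuse with each other or by VAMP7 when they fuse with lysosomes. STX8 (chr17:9250471-9576591, minus strand, GRCh38) had 766, 723 and 842 reads in shNEG and 181, 158 and 173 in shSPINK2. The lowest shNEG library thus stood far above the highest shSPINK2 library. Normalized reads averaged 776 ± 61.2 (SD, n = 3) against 169 ± 10.9 (SD, n = 3), a log2 fold change of -2.20 ± 0.11 (SE) or 4.59-fold lower.

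None of its partners was lower. STX7 had 1121, 1108 and 1121 reads in shNEG and 1329, 1589 and 1347 in shSPINK2, and its groups did not overlap. Its log2 fold change was 0.34 ± 0.07 (SE), or 0.25 without the shSPINK2 library of 1589 reads. VTI1B had 3022, 3005 and 2861 reads against 3209, 3213 and 3343 (0.12 ± 0.05, SE), so that each shSPINK2 library was slightly above each shNEG library.

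Both R-SNAREs of this route were higher as well. VAMP7 had 3798, 3897 and 3935 reads in shNEG and 4374, 4866 and 4117 in shSPINK2, a log2 fold change of 0.19 ± 0.05 (SE) that came to 0.12 without the library of 4866 reads. VAMP8 had 7612, 7662 and 7512 reads against 11133, 10925 and 10176, which at 0.49 ± 0.04 (SE) was the largest increase of the set. VAMP8 also had the highest level of the 40 genes, 8480 reads in shNEG and 11890 in shSPINK2 per kilobase of merged exons.

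Within a library, the balance between STX8 and its partners shifted accordingly. The ratio of STX8 to STX7 normalized reads was 0.683, 0.653 and 0.751 in shNEG against 0.136, 0.0994 and 0.128 in shSPINK2. The ratio of STX8 to VTI1B was 0.254, 0.241 and 0.294 against 0.0564, 0.0492 and 0.0517. Per kilobase of merged exons, STX8 stood above STX7 in shNEG (225 against 68.1) and below it in shSPINK2 (48.9 against 86.0), although this order depends on the long 3′ UTR annotated for STX7. In bulk RNA, less STX8 RNA in every cell and fewer cells with STX8 RNA cannot be told apart.

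**Figure D3:**
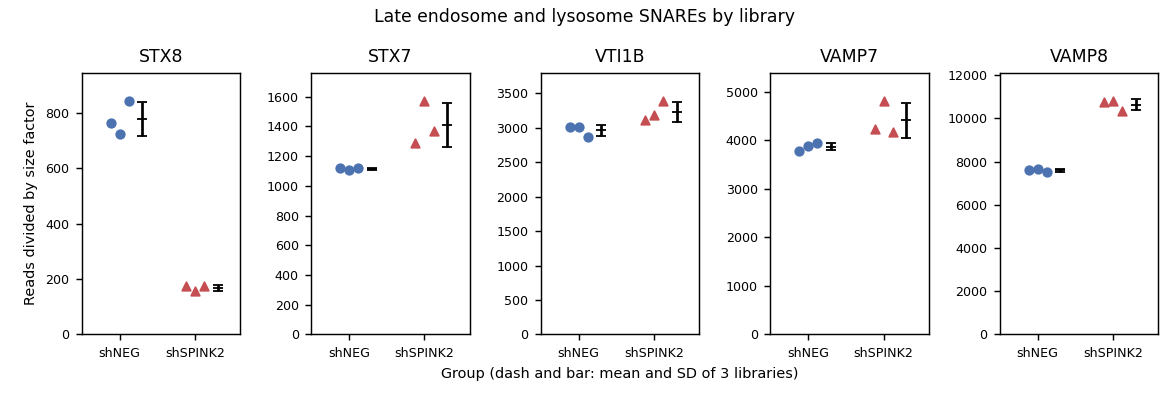
Reads divided by size factor of STX8 and the SNAREs it assembles with, 1 panel per gene with its own axis from 0, a point per library and the mean with its SD (n = 3) beside it. STX8 goes from 776 to 169 on average, and STX7, VTI1B, VAMP7 and VAMP8 each have all 3 shSPINK2 libraries above all 3 shNEG libraries.

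The genes beside STX8 on chromosome 17 that had an adjusted p-value did not share its size of change. NTN1, which encodes the guidance factor netrin 1 and ends before STX8 begins, had a mean normalized count of 68.9. Its log2 fold change was -1.05, and it was called lower. AC087501.5, which lies within the span of STX8 and on the same strand, had -0.18 and was not called. USP43, the next tested gene on the other side, was called lower at -0.62, and GAS7 beyond it was called higher at 0.14.

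The 3′ UTRs of the members were searched for a word of 7 bases, GCTCTCA, because earlier work on these data found it in RNAs that were lower. The word forms positions 10 to 16 of the labelled target of shRNA2. It is absent from that of shRNA1, the only SPINK2 hairpin that the methods name. It occurs in the canonical 3′ UTR of 6 of 39 members (15.4%; USE1 was not included) and of 10.4% of all tested genes with a 3′ UTR. Over all tested genes, the median 3′ UTR had 3183 bases with the word and 1117.5 without it. In the members these medians were 3780 and 1787, and the shares were not adjusted for length. The members are shown with 21 bases around the word, sense strand, written 5′ to 3′ with the word in capitals, from GENCODE 44 on GRCh38, below the targets of both hairpins, so that the shared and unshared bases can be read off.
shRNA1 target: tcagggaaggtggtcataata
shRNA2 target: cgccaaactGCTCTCAgtata
STX8, chr17:9250488-9250508, minus strand: gcaaaacctGCTCTCAataaa
STX3, chr11:59801055-59801075, plus strand: gccccaccaGCTCTCAagtac
VPS33B, chr15:90998675-90998695, minus strand: aaagcctctGCTCTCAgatgt
GOSR2, chr17:46939005-46939025, plus strand: ctcactctcGCTCTCActggg
VTI1B, chr14:67647698-67647718, minus strand: tgagattggGCTCTCAtctag
STX7, chr6:132455110-132455130, minus strand: cggtgaaaaGCTCTCAgatca
STX7, chr6:132451665-132451685, minus strand: ttcatctaaGCTCTCAgattt

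STX8, STX3 and VPS33B, the members with the lowest fold changes, all hold the word, and so do GOSR2 (-0.02), VTI1B (0.12) and STX7 (0.34), which were not lower. Every window was chosen for holding the word, so 7 shared bases and a run of at least 7 were given in advance. Aligned on the word, the STX8 window has the same base as the shRNA2 target at 14 of 21 positions, with an unbroken run of 9. Corresponding counts were 11 with a run of 7 in STX3 and 10 with a run of 10 in VPS33B, against 10 and 7 in GOSR2 and 9 and 7 in VTI1B. The first window of STX7 shares 13 bases with a run of 8 and the second 10 with a run of 8. Whether shared bases bear on the fold changes was not tested.

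The place of the word in the 3′ UTR differed. It starts at base 79 of 107 in STX8, 240 of 5054 in STX3, 289 of 302 in VPS33B and 254 of 3260 in GOSR2. In VTI1B it starts at base 3676 of 4300, and in STX7 at bases 5637 and 9082 of 14891. Whether the RNAs of these cells extend so far into the annotated 3′ UTRs was not tested. The start bases of STX3 and GOSR2 are close, and their log2 fold changes were -1.18 and -0.02. Whether the place of the word bears on the fold changes was not tested.

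In the coding sequence alone, STX2 and VPS45 hold the word, and both were lower. Of tested genes of that kind with at least the lowest member's mean, 62.3% had a fold change below 0. The share was 72% with the word in the 3′ UTR (4 of 6 members) and 47.8% with the word in neither place (7 of 31 members). The remaining lower members, VTI1A, STX18 and STX11, hold the word in neither place. The median log2 fold change was -0.42 for members with the word in the 3′ UTR and 0.14 for the 33 without it, and over all tested genes the medians were -0.20 and 0.01. Without STX8, the gene around which the list was drawn up, the median of the 5 members with the word was -0.02. A median of so few values moves as far when STX3 or VPS33B is left out instead. With any coding transcript in place of the canonical one, VPS45 joins the members with the word. The word was taken from lower RNAs of these same data, so a lower median with the word is no independent support. Length of the 3′ UTR was not accounted for in these medians. The part of the word and of either hairpin in these differences was not tested.

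**Figure D4:**
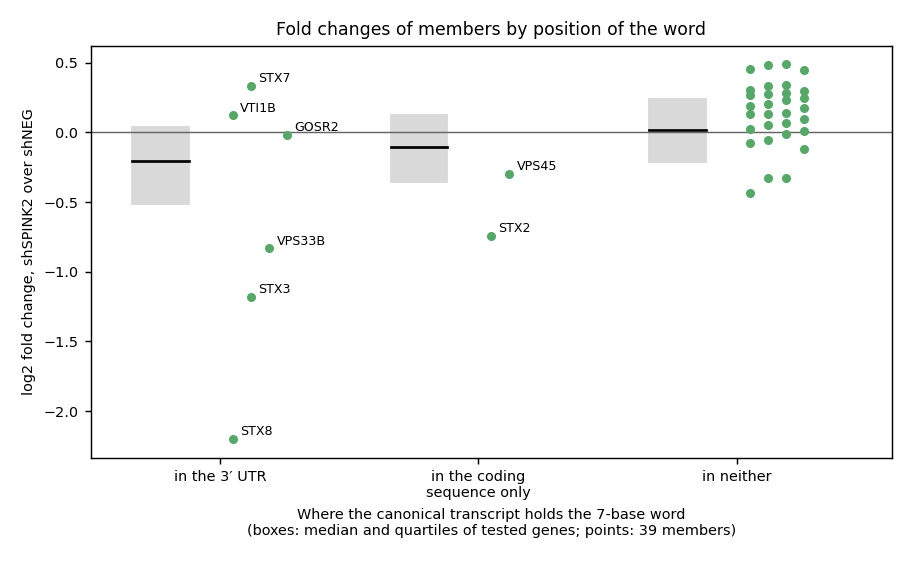
Log2 fold changes of 39 members by where the canonical transcript holds the word, as points, with boxes for the median and quartiles of tested genes of at least the lowest member's mean in the same class. Points with the word in the 3′ UTR spread from -2.20 for STX8 to 0.34 for STX7, both coding matches lie below 0, and the points without the word gather above 0 with 7 of 31 below it.

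Complementary sites for bases 2 to 8 of each hairpin's guide were counted too. The site TCATAAT of shRNA1 is in the 3′ UTR of 4 members (10.3%, against 13.3% of all tested genes), whose median log2 fold change was 0.20. The site TCAGTAT of shRNA2 is in 12 members (30.8%, against 15.1%), with a median of 0.26. Neither group of members was lower on the median than the members without the site, at 0.13 and 0.05. Genes with either site had longer 3′ UTRs, with medians of 3225 and 3178 bases against 1048 and 1018.5 over all tested genes. Length was not accounted for in these shares and medians.

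Of the 4 syntaxins of the plasma membrane, 3 were called lower, of which STX11 kept no call at a threshold of 0.01. The share called lower was 24.4% over all genes tested and 35.4% over those of at least the lowest member's mean. STX3, a Qa-SNARE of granule and apical membrane secretion, had 2171, 2296 and 2222 reads in shNEG and 981, 1057 and 939 in shSPINK2. Every shSPINK2 library had fewer reads than every shNEG library by a wide margin, and the log2 fold change was -1.18 ± 0.06 (SE), 2.27-fold lower. Relative to STX4, which serves the same membrane, STX3 normalized reads went from ratios of 1.35, 1.45 and 1.51 in shNEG to 0.500, 0.615 and 0.507 in shSPINK2, so that STX3 had the more reads of the pair in shNEG and STX4 in shSPINK2.

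STX2, another Qa-SNARE of the surface that is also known from cytokinesis, had 1054, 1145 and 1074 reads against 657, 679 and 639 (-0.74 ± 0.07, SE). STX11, an atypical syntaxin needed for granule release by cytotoxic lymphocytes, had 259, 217 and 220 reads against 181, 186 and 193 (-0.33 ± 0.13, SE). STX11 was the member with the fewest reads and its groups lay close, with 217 reads in the lowest shNEG and 193 in the highest shSPINK2 library. STX4 was higher in shSPINK2, with 1612, 1579 and 1470 reads against 1963, 1718 and 1851 (0.23 ± 0.06, SE).

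The surface SNAREs that pair with these syntaxins were not lower. SNAP23, the widely expressed relative of neuronal SNAP-25 that gives both a Qb and a Qc helix, had 2658, 2532 and 2557 reads in shNEG and 3511, 3710 and 3686 in shSPINK2. Its groups were clearly apart at 0.48 ± 0.05 (SE). SNAP29, which joins autophagosomes to lysosomes, was higher too (0.27 ± 0.05, SE), and SNAP47 had 0.14 ± 0.07 (SE) and was not called although its groups did not overlap. VAMP3, the R-SNARE of recycling endosomes, had 2090, 2076 and 2105 reads against 2803, 3064 and 2810 (0.46 ± 0.05, SE).

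The other R-SNAREs of the surface, VAMP1, VAMP2 and VAMP5, had log2 fold changes of -0.08, 0.10 and 0.01, and the groups of each overlapped. VAMP2, the synaptobrevin of regulated exocytosis, for example had 781, 819 and 776 reads against 935, 882 and 752. A single shSPINK2 library lay below all shNEG libraries there and the others above them. For VAMP1 the value moved to -0.18 without the shSPINK2 library of 1218 reads.

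Of the SNAREs of early endosomes and the trans-Golgi network, 4 of 6 were higher and 1 was lower. The shares over tested genes of at least the lowest member's mean were 31.7% and 35.4%. The lower gene was VTI1A, the Qb-SNARE that takes the place of VTI1B in trans-Golgi bundles, with 1555, 1519 and 1459 reads in shNEG and 1155, 1133 and 1087 in shSPINK2 (-0.44 ± 0.06, SE). As a share of VTI1B it went from 0.515, 0.506 and 0.510 to 0.360, 0.353 and 0.325, and the groups did not overlap. Its Qc partner STX6 had 1262, 1293 and 1291 reads against 1554, 1680 and 1656 (0.34 ± 0.06, SE).

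STX16, the Qa-SNARE of the same bundle, was higher at 0.21 ± 0.05 (SE), and VAMP4, its R-SNARE, at 0.28 ± 0.09 (SE). VAMP4 had 514, 544 and 518 reads against 653, 729 and 550, a wide spread in shSPINK2, and its log2 fold change was 0.18 without the library of 729 reads. STX12, a Qa-SNARE of recycling endosomes, had 0.25 ± 0.07 (SE). STX10, a Qc-SNARE close to STX6 in sequence, had -0.12 ± 0.06 (SE) and was not called.

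Of 10 SNAREs between the endoplasmic reticulum and the Golgi, 5 were higher, 1 was lower and 4 were not called. Among tested genes of at least the lowest member's mean, 31.7% were called higher and 35.4% lower. The lower one of the 10 was STX18, the Qa-SNARE for return to the endoplasmic reticulum. It had 800, 808 and 907 reads against 725, 635 and 665 (-0.33 ± 0.08, SE). Its partners in that bundle differed from it, since BNIP1 had -0.06 ± 0.09 (SE), USE1 0.17 ± 0.07 (SE) and SEC22B 0.27 ± 0.04 (SE). For USE1 the value was 0.11 without the shSPINK2 library of 1089 reads.

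On the forward route, STX5, the Qa-SNARE of the Golgi, had 1491, 1448 and 1494 reads in shNEG and 1906, 1861 and 1886 in shSPINK2 (0.34 ± 0.05, SE). BET1, its Qc partner, had 1982, 2119 and 2046 reads against 2801, 2959 and 2695 (0.45 ± 0.05, SE), and both genes had groups far apart for their spread. BET1L, the relative of BET1 within the Golgi, was higher at 0.17 ± 0.04 (SE). GOSR1, GOSR2 and YKT6 had log2 fold changes of 0.03, -0.02 and -0.01 with standard errors of 0.05, 0.05 and 0.04, the smallest differences of the group. YKT6 had 5788, 5802 and 5813 reads against 5868, 5664 and 5893, and its groups overlapped.

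No gene of the disassembly machinery was lower. NSF had 3507, 3334 and 3347 reads against 4071, 4614 and 3951 (0.30 ± 0.06, SE), and 0.23 without the library of 4614 reads. NAPA, the main SNAP adaptor, had 0.13 ± 0.05 (SE) and was called at 0.05 but not at 0.01, and NAPG, a less abundant relative, had 0.05 ± 0.07 (SE) and was not. NSF and SEC22B have annotated pseudogene copies, and how reads shared with such copies were counted is not given in the sources used here. SNAP23, SNAP29, SNAP47, VAMP1, VTI1A, VTI1B and YKT6, among others, share exon bases with a gene on the opposite strand, so reads of both cannot be told apart if counting ignored strand.

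Among the Sec1/Munc18 proteins, the close relatives VPS33A and VPS33B moved in opposite directions. VPS33B, which works with VIPAS39 in sorting to granules and lysosomes, had 1135, 1142 and 1148 reads in shNEG and 701, 631 and 611 in shSPINK2 (-0.83 ± 0.07, SE). VPS33A, the subunit of the HOPS complex that binds late endosomal SNAREs, had 1154, 1162 and 1198 reads against 1472, 1504 and 1392 (0.30 ± 0.06, SE). The pair had nearly equal reads in shNEG, with ratios of 0.984, 0.983 and 0.958, and ratios of 0.476, 0.42 and 0.439 in shSPINK2. VPS33B and VPS33A each share exon bases with another annotated gene on the same strand, which for VPS33A had a mean of 0. The same kind of overlap is annotated for STX16, among others.

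VPS45, the partner of endosomal and trans-Golgi syntaxins, had 878, 913 and 926 reads against 722, 795 and 711 (-0.30 ± 0.07, SE), with groups apart. STXBP2, which works with STX11 in granule release, was slightly higher at 0.13 ± 0.05 (SE), while STX11 was lower. STXBP3, the partner of STX4, had 0.07 ± 0.05 (SE) and was not called.

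Among 68 further genes of vesicle tethering and fusion, chosen for their function, 60 had an adjusted p-value. Of these, 10 were lower, 23 higher and 27 not called, with a median log2 fold change of 0.06. Over all genes tested 24.4% were called lower and 22.7% higher. Among those of at least the lowest member's mean the shares were 35.4% and 31.7%. Of the 8 genes of the HOPS and CORVET tethers and VIPAS39, 4 were higher and 2 lower. VIPAS39, the partner of VPS33B, was higher at 0.50, opposite to VPS33B, and the HOPS subunit VPS41 was higher at 0.41. The lower genes were TGFBRAP1, a CORVET subunit of early endosomes, at -0.82 and VPS11, shared by both complexes, at -0.18.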

How the data were processed

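RNA of FUJIOKA cells (3 shNEG and 3 shSPINK2 libraries, paired reads of 150 bases) was aligned by the authors to GRCh38 with STAR 2.7.11 and counted per gene, and the groups were compared with DESeq2 1.40.0, versions as in the submitters' processing notes. The release of the gene annotation, whether counting used strand, and when RNA was taken are not given in the sources used here. The methods name 1 SPINK2 hairpin, shRNA1, and the labels 2. The labels do not say that libraries came from separate cultures, so standard errors may measure technical spread.

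The authors deposited 1 table with 63236 genes. Its mean normalized count is a signal that the authors obtained by dividing read counts by size factors. The log2 fold changes and standard errors used here are the authors' DESeq2 estimates. The Wald score and each p-value, raw or adjusted, are also as the authors deposited them, and no new model was fitted. Of 43 entries with a member's symbol, 3 had a mean of 0 and were left out.

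Reads per library were recovered here as the only whole numbers, in the range searched, that give a gene's mean, fold change (within 1e-08) and standard error. The range was widened only until a match was found. Size factors of the 6 libraries came from genes with 1 read in 1 library. For VAMP8, 8372 sets of reads gave the mean, and the next closest set missed the fold change by 2.4e-08. With the fold change shifted by 0.05, 1 of 72 searches found whole numbers that matched. NAPA, VAMP7, SEC22B, YKT6 and VAMP8, the most abundant members, were not among these searches. The search was also tested on simulated data, at control levels below those of these genes. Reads carry no molecular identifiers, so counts are not independent molecules. The sum of the means is 38425214 reads per library. An exact permutation test of 3 against 3 libraries cannot go below p = 0.1 and was not run.

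The members and all gene lists were chosen with earlier results of these data known. Genes named are SPINK2, the 40 members, markers, the genes beside STX8 and, per list of other genes, the 2 called with the largest change in each direction and a mean of at least 50. Some genes that this rule takes are not reported here. Merged exons, 3′ UTRs and sequences came from GENCODE 44, and 3′ UTRs of under 21 bases were not searched. Protein sequences of the members were not analysed here. Alternatives were other adjustments and thresholds, centring, leaving out each library and other transcripts. Python 3.11.15, numpy 2.4.6, pandas 2.3.3, numba 0.67.0 and matplotlib 3.10.9 were used.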

Additional observations from a re-analysis of the deposited data

How the results depend on the processing

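Under 5 other settings (an adjusted p-value under 0.01, adjustment over every gene with a p-value, the Benjamini-Yekutieli adjustment, a minimum mean of 50, and centring on the median gene, a shift of 0.01) the members called lower numbered 7 to 8 and those called higher 16 to 21. The calls of STX11, STXBP2, USE1 and VTI1B ended under the first 3 of these settings, that of NAPA under an adjusted p-value of 0.01 and the Benjamini-Yekutieli adjustment, and that of VAMP4 under the latter alone. With a threshold of 1.5-fold in place of 2-fold, 4 members passed instead of 2. Leaving out each library in turn, the 29 called members kept their direction in all 174 ratios, and 3 of them (USE1, VAMP7 and VAMP4) moved by over 1.5 times. Of the 11 members not called, YKT6 and VAMP5 changed sign without 1 library. No paired analysis was possible because the recovered libraries carry no replicate number. Reads shared with overlapping genes cannot be separated, as the strandedness of the counting is not given.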

Other observations

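The other tethers and regulators gave the following values in the same comparison, in which 24.4% of all genes tested were called lower and 22.7% higher. Of 9 genes of endoplasmic reticulum, Golgi and endosome tethers, 2 were lower and 4 higher. GOLGA2, a Golgi matrix protein that receives vesicles, had a log2 fold change of 0.73 and USO1, its tethering partner, 0.43. GORASP2, a Golgi stacking protein, had -0.70 and ZW10, part of the tether that works with STX18, had -0.30. Of the 8 genes of the COG complex, which tethers vesicles within the Golgi, COG2 was lower at -0.56, and COG5 and COG6 were the highest of 3 higher genes at 0.47 and 0.40. Of 5 genes of the GARP and EARP complexes, which receive endosomal vesicles, VPS54 had -0.15, VPS52 0.24 and VPS51 0.13.

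Of 9 genes of the exocyst, the tether of the plasma membrane, EXOC6 was lower at -0.19, and EXOC7 and EXOC4 led 3 higher genes at 0.38 and 0.32. Among 12 tested regulators of SNAREs, UNC13D, a priming factor of granule release that myeloid cells express, had a mean normalized count of 9083 and a log2 fold change of 0.41. STXBP5, which binds syntaxins, had 0.37, and TXLNA, another syntaxin-binding protein, had -0.23. Among 9 further SNAREs and Sec1/Munc18 genes that were tested, SEC22C was lower at -0.22, and TSNARE1 and SEC22A were higher at 0.36 and 0.31.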
